A study of Mus musculus with 6 samples.

Results

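The Kruppel-like factors are zinc finger transcription factors that bind CACCC and GC-rich elements through closely related DNA-binding domains at their C termini. In mouse embryonic stem cells KLF2, KLF4 and KLF5 act redundantly to sustain the naive pluripotent state, and KLF4 is a target of LIF and STAT3 signalling. Other members are known from later tissues: KLF7 supports axon outgrowth in the mouse nervous system, KLF9 responds to thyroid hormone and glucocorticoids, and KLF10 is induced by TGF-beta. The 10 genes described here (Klf2, Klf3, Klf4, Klf5, Klf6, Klf7, Klf9, Klf10, Klf12 and Klf13) were found by exact gene name among 46517 gene IDs of the deposited tables. The values of 7 further Klf genes and of the 9 Sp genes, which encode relatives with a similar zinc finger domain, are given for comparison.

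RNA was sequenced from wild-type E14TG2a, an established mouse embryonic stem cell line derived from a blastocyst, at 3 stages with 2 libraries each. The mESC libraries come from undifferentiated cells on gelatin without feeders, in serum medium with LIF. The NPC libraries come from neuronal progenitors, and the NC libraries from the last stage, which the labels do not spell out and which the design text leaves as glutamatergic pyramidal neurons. All 3 stages derive from the same line, and the labels call the libraries of a stage biological replicates without naming separate cultures, so p-values measure the spread between those libraries only.

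Levels are deposited TPM, which are scaled for transcript length and sum to the same total in each library. Depth was 1.57 to 2.27 Gb of aligned bases, and between 16667 and 19040 genes reached 1 TPM in a library. Counts of reads were not used here, so no counting interval is given. Differences are log2 fold changes (log2FC) of TPM + 1 with their SE, from limma fitted to 20232 genes with at least 1 TPM in at least 2 libraries. A gene is called changed at a Benjamini-Hochberg adjusted p under 0.05 over all tested genes. All 10 genes passed that filter. Over all tested genes the median log2FC was 0.18 for NPC against mESC, 0.11 for NC against NPC and 0.31 for NC against mESC, and after median-of-ratios scaling it was 0.03, 0.07 and 0.12. Genes that rose made up 65.0%, 60.1% and 63.2% of those called in the same 3 comparisons as deposited, and 51.2%, 47.7% and 47.2% after quantile normalization.

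The pluripotency markers were highest in mESC and the neuron markers in NC, while the summed progenitor markers did not single out NPC. The NC libraries also differed from each other. The summed level of 5 pluripotency markers was 4138 and 4221 TPM in the mESC libraries, 5.07 and 3.89 TPM in NPC, and 13.3 and 9.35 TPM in NC. The 6 neuron markers summed to 251 and 315 TPM in mESC, 518 and 813 TPM in NPC, and 3407 and 3056 TPM in NC. Stmn2 held 162 and 193 TPM of the mESC sums and had 67.5 and 77.8 TPM in NPC. It was the 1 neuron marker called lower in NPC against mESC, and 4 were called higher. The 5 progenitor markers summed to 26.9 and 43.8 TPM in mESC and to 774 and 667 TPM in NPC, below NC replicate 1. Pax6, Hes5 and Sox1 were higher in both NPC libraries than in either NC library. The NPC and NC ranges of Nes overlapped, and Fabp7 was higher in both NC libraries than in NPC. The NC libraries also held fibroblast or smooth muscle markers (9 genes, 974 and 1107 TPM, against 36.9 to 124 TPM in the other 4 libraries). NC replicates 1 and 2 stood apart from each other in progenitor markers (5 genes, 1099 and 340.5 TPM), astrocyte markers (4 genes, 70.0 and 2.83 TPM) and epithelial markers (5 genes, 87.4 and 333 TPM). Microglia and blood markers summed to at most 0.849 TPM in any library. In such bulk samples, fewer cells of a type and less RNA per cell cannot be told apart.

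The summed level of the family was much lower in NPC and NC than in mESC, and its make-up differed between the stages. The 10 genes together held 810.4 and 788 TPM in the mESC libraries, 174 and 183 TPM in NPC, and 198 and 252 TPM in NC. Klf2, Klf4, Klf5, Klf9 and Klf10, which are grouped here after their values were seen, because they fell in NPC against mESC, took 85.3% and 85.8% of that sum in the mESC libraries. Their share was 36.9% and 31.8% in the NPC libraries and 26.9% and 25.5% in the NC libraries. Their sum was 691 and 676 TPM in mESC, 64.3 and 58.3 TPM in NPC, and 53.2 and 64.5 TPM in NC. The other 5 genes together stayed in a narrow range at first, with 119.5 and 112 TPM in mESC and 110.0 and 125 TPM in NPC, and reached 145 and 188 TPM in NC. The first set was picked by its fall, so it follows from the grouping that the difference in the family sum between mESC and NPC lay there. The second set held most of the sum in NPC and NC.

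**Figure D1:**
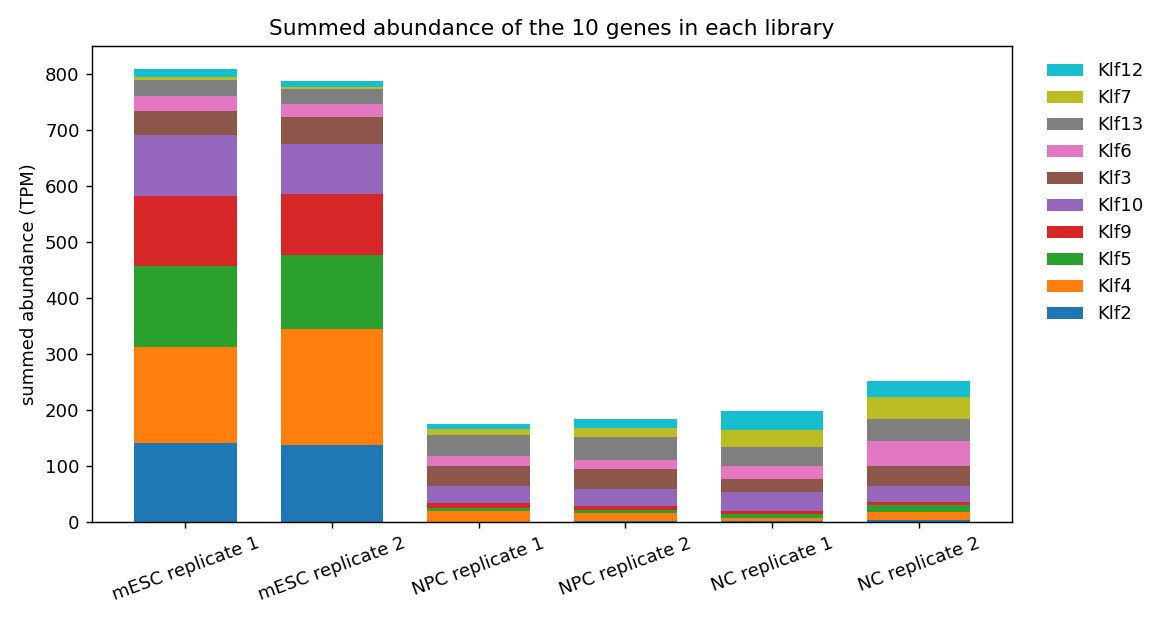
Stacked bars give the summed abundance (y axis, TPM) of the 10 genes in each of the 6 libraries (x axis), with 1 colour per gene. The bars reach 810.4 and 788 TPM in the mESC libraries and lie between 174 and 252 TPM in the 4 NPC and NC libraries.

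The order of the members changed with the stage. In mESC Klf4 was the most abundant (173 to 207 TPM), followed by Klf2 and Klf5, whose ranges overlapped, then Klf9 (110.1 to 125 TPM), Klf10 (89.8 to 108 TPM) and Klf3 (43.2 to 47.8 TPM). Klf13 and Klf6 overlapped below them, and Klf12 (10.6 to 14.3 TPM) and Klf7 (4.69 to 5.33 TPM) came last. In NPC Klf13 (37.4 to 41.9 TPM) stood first, Klf3 (36.2 to 36.9 TPM) came next and Klf10 (29.7 to 31.4 TPM) after it. Klf4, Klf6, Klf7 and Klf12 each overlapped the next in that order, between 9.30 and 19.3 TPM, and Klf9, Klf5 and Klf2 followed apart from each other. In NC Klf13, Klf6, Klf7, Klf12, Klf10 and Klf3 each overlapped the next, between 22.4 and 44.9 TPM, so that their order is not resolved. Klf4 and Klf5 overlapped below them, and Klf9 and Klf2 came last. In mESC the mean of Klf4 exceeded that of 95.4% of all tested genes, against 53.8% in NPC and 43.3% in NC.

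Promoter windows are shown for Klf2, Klf4 and Klf9, which are the genes with a matched window that fell most in NPC against mESC, and for the genes that were higher in NC than in NPC (Klf7 and Klf12), since the members of each set moved in the same direction. RefSeq windows of GRCm38.p6, the build called mm10, run from 250 bases before to 50 bases after the gene start, and 8 of the 10 genes matched by symbol. Each is written 5′ to 3′ on the strand of its gene, and capitals mark CACCC or its reverse GGGTG, the core of the element that gave the family's sites their name.
Klf2, chr8:72318812-72319111, plus strand: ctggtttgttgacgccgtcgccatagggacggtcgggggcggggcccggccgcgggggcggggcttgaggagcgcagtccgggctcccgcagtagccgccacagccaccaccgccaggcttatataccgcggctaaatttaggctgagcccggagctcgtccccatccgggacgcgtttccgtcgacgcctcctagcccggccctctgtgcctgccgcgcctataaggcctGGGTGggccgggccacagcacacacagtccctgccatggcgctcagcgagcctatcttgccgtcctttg
Klf4, chr4:55532426-55532725, minus strand: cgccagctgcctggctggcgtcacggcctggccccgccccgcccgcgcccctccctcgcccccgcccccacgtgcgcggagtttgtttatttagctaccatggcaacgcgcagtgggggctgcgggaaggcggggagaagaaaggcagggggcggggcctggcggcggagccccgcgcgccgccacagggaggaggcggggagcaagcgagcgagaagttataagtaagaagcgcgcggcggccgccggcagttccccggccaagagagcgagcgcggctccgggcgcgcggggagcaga
Klf9, chr19:23140976-23141275, plus strand: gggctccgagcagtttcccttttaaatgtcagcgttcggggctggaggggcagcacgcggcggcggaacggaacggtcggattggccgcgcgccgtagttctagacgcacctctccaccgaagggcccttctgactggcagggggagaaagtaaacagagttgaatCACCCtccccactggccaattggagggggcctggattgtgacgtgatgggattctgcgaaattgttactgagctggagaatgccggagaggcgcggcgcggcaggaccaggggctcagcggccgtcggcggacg
Klf7, chr1:64121340-64121639, minus strand: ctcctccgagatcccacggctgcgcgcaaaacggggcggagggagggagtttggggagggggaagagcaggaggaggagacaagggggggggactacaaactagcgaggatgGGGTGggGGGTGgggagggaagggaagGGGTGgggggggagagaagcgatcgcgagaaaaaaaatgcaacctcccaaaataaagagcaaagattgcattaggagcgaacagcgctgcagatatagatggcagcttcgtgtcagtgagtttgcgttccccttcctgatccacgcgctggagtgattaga
Klf12, chr14:100149747-100150046, minus strand: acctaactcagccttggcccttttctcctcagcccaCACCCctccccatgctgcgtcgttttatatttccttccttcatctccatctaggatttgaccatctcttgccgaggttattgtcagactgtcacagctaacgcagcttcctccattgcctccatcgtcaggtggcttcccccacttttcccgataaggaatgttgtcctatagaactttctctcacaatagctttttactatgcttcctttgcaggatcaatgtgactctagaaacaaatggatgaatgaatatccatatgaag
The windows of Klf2, Klf4 and Klf9 are rich in CpG, with 32, 40 and 28 CpG dinucleotides against a median of 7 over 32851 RefSeq promoter windows of the same length. Klf7 has 16, and the window at the deposited start of Klf12 has 6, which is below that median. Their GC contents are 58.3% and 45.7%, against 69.3% for Klf2, 74.3% for Klf4 and 63.3% for Klf9. The median GC content over all windows is 52.7%. The windows of Klf3, Klf6 and Klf13, which are not printed, are also rich in CpG, with 29, 23 and 32. Their GC contents are 76.7%, 63% and 72%. Klf13, which was called higher in NPC against mESC, thus has as many CpG dinucleotides as Klf2. A CACCC match on either strand occurs in 57.5% of all windows. Klf2, Klf9 and Klf12 have 1 each, Klf7 has 3 between positions -138 and -107 and Klf4 has none. The GC box GGGCGG or its reverse CCGCCC, which occurs in 35.7% of all windows, matched 2 times in Klf2, 4 times in Klf4 and 1 time in Klf7. Among the windows not printed, that of Klf3 held 5 CACCC and 6 GC box matches, of which 1 pair shared a base, and Klf13 held 1 and 3, again with 1 pair sharing a base. The palindrome TTCNNNGAA, the form bound by STAT proteins, occurs in 8.30% of all windows and matched in Klf9 alone of the 8. TATAAA or its reverse TTTATA occurs in 13.6% of all windows and matched only in Klf12. A match is a stretch of letters and not a measured site. Klf12 lies on the minus strand, so its start is its highest position. GENCODE vM21 puts that start at 100284679, upstream of the start of the deposited model at 100149764. The printed window thus lies inside that longer model and not at its start. Its CpG, GC and motif values may therefore not be those of the promoter in use. The RefSeq start of Klf7 lies 893 bases downstream of the start of the deposited model, so its whole window is inside the measured gene. The starts of Klf2, Klf4, Klf9 and Klf12 lie within 32 bases of the deposited ones.

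**Figure D2:**
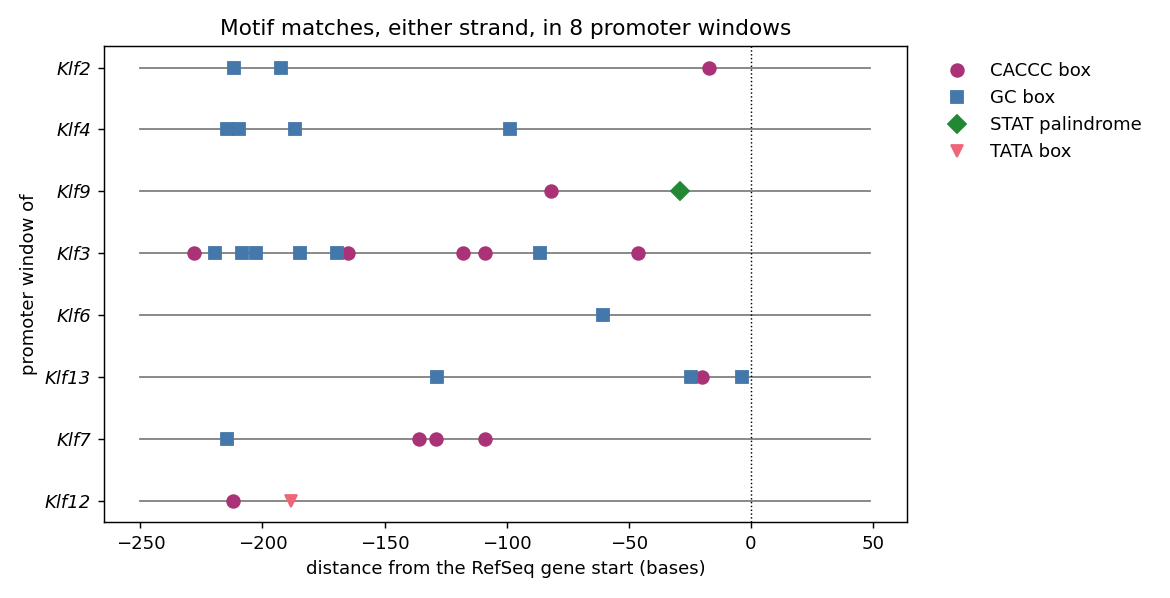
Positions of 4 motifs (symbols) in the 8 matched promoter windows (rows), as distance in bases from the RefSeq gene start (x axis, dotted line at 0). Klf3 shows the most CACCC and GC box matches (5 and 6), Klf7 has 3 CACCC matches upstream of its RefSeq start, inside the deposited gene model, and Klf4 has GC boxes and no CACCC match.

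Of the 10 genes, 5 fell and 2 rose in NPC against mESC, where 40.0% of all tested genes were called, 14.0% lower and 26.0% higher. Their median log2 fold change was -1.15, against 0.18 over all tested genes. In NC against NPC 2 rose and 0 fell, where 25.3% of all genes were called, 15.2% higher and 10.1% lower, and their median was 0.34, against 0.11 over all. In NC against mESC 6 fell and 2 rose, where 59.9% of all genes were called, 22.1% lower and 37.8% higher, and their median was -1.14, against 0.31 over all. These comparisons share libraries, so their values are set side by side and are not independent. Leaving out 1 library moved the number called to between 5 and 8 in NPC against mESC, between 0 and 4 in NC against NPC, and between 6 and 8 in NC against mESC. The count of 0 was found without NPC replicate 1, where limma called 309 genes in all, and 5016 had an unadjusted p under 0.05. The count of 4 was found without NC replicate 1.

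**Figure D3:**
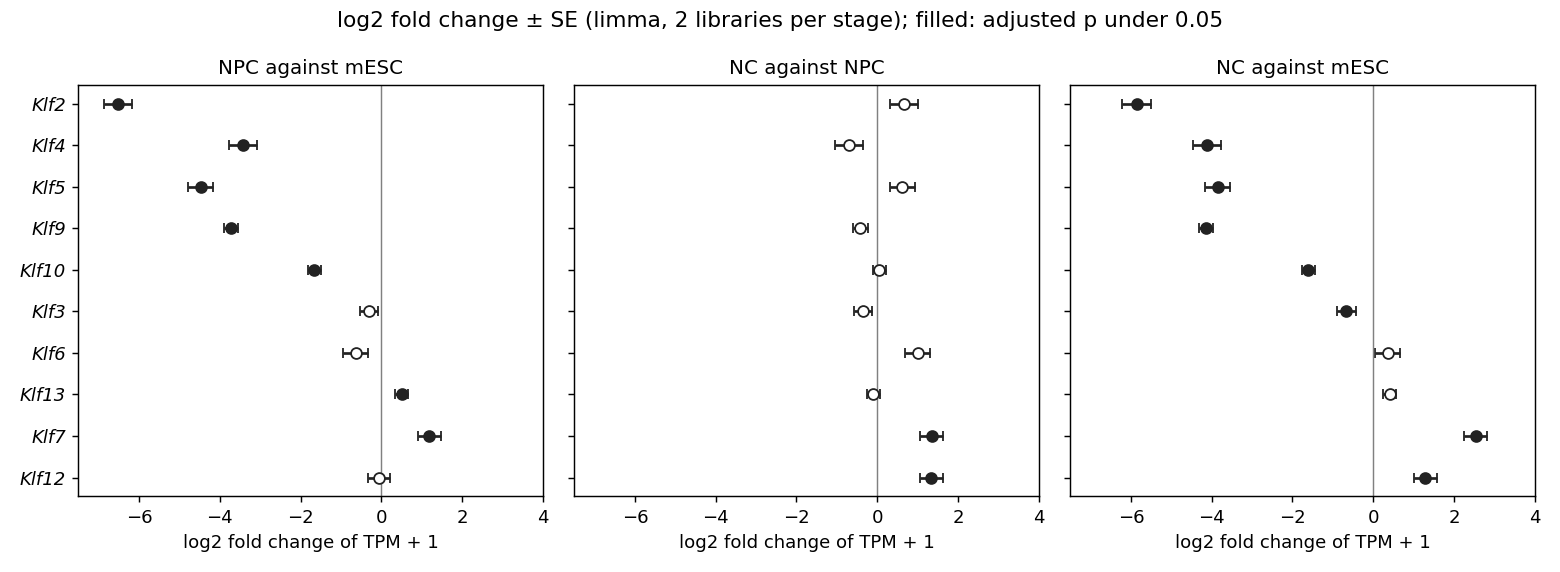
Each point is the log2 fold change of TPM + 1 (x axis) of a gene (rows) with its SE, in the 3 comparisons (panels), from limma with 2 libraries per stage. Filled points passed an adjusted p of 0.05, which left 5 lower and 2 higher in NPC against mESC, 2 higher in NC against NPC, and 6 lower and 2 higher in NC against mESC.

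Klf2, Klf4 and Klf5 encode the activators that maintain naive pluripotency, and each fell more than 10-fold on the TPM + 1 scale. Klf2 (ENSMUSG00000055148.7, chromosome 8, 72319033 to 72321656) had 140.0 and 137 TPM in the mESC libraries, 0.409 and 0.634 TPM in NPC, and 0.714 and 2.37 TPM in NC. It was nearly lost at the first step, and no library of a later stage came near those of mESC. Its log2 fold change was -6.52 for NPC against mESC (SE 0.349, limma adjusted p = 6.18e-05) and -5.86 for NC against mESC (SE 0.349, limma adjusted p = 4.49e-05). The first was -7.83 with a pseudocount of 0.1 and -5.79 with FPKM, and the second was -6.61 with a pseudocount of 0.1. Klf2 lay below 1 TPM in 3 of the 4 later libraries. NC against NPC was not called (0.66, SE 0.349, limma adjusted p = 0.21), except without NC replicate 1, when it was 1.15 (limma adjusted p = 0.0394).

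Klf4 (ENSMUSG00000003032.8, chromosome 4, 55527143 to 55532466) had 173 and 207 TPM in mESC, 19.3 and 14.6 TPM in NPC, and 6.63 and 14.8 TPM in NC. Unlike Klf2 it kept a level above 5 TPM in every library, and the NPC and NC ranges overlapped. Its log2 fold change was -3.42 for NPC against mESC (SE 0.348, limma adjusted p = 0.000605) and -4.11 for NC against mESC (SE 0.348, limma adjusted p = 0.000156). NC against NPC gave -0.69 (SE 0.348, limma adjusted p = 0.192), and -1.22 without NC replicate 2 (limma adjusted p = 0.0399).

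Klf5 (ENSMUSG00000005148.7, chromosome 14, 99298691 to 99313405) had 145.0 and 132 TPM in mESC, 5.64 and 4.90 TPM in NPC, and 6.03 and 12.2 TPM in NC. The mESC libraries were far above the rest. Its log2 fold change was -4.48 for NPC against mESC (SE 0.305, limma adjusted p = 0.000142) and -3.85 for NC against mESC (SE 0.305, limma adjusted p = 0.000124). NC against NPC was 0.62 (SE 0.305, limma adjusted p = 0.182), and 1.08 without NC replicate 1 (limma adjusted p = 0.0306).

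Genes of the naive network and of LIF signalling were listed beside these factors. Of 18 tested, 14 fell and 0 rose in NPC against mESC, with a median log2 fold change of -3.49. Over all tested genes 14.0% fell and 26.0% rose there. The largest changes were those of Pou5f1, Zfp42, Nanog and Esrrb. Pou5f1, which encodes OCT4, had 0.766 and 1.08 TPM in NPC, against 1475 and 1891 TPM in mESC (log2FC -9.77 ± 0.215 SE, limma adjusted p = 6.31e-06). Zfp42, the pluripotency marker REX1, had 2.95 and 1.35 TPM in NPC, against 790.0 and 916 TPM in mESC (log2FC -8.13 ± 0.290 SE, limma adjusted p = 2.09e-05). All 4 were far above their later levels in both mESC libraries. Esrrb, an orphan nuclear receptor of the naive network, had 1.29 and 1.47 TPM in NPC, against 564 and 546 TPM in mESC (log2FC -7.87 ± 0.208 SE, limma adjusted p = 8.68e-06). Nanog, a homeobox factor of that network, was listed at 0 in both NPC libraries, against 213 and 261 TPM in mESC. In NC against NPC 2 rose and 3 fell, where 15.2% of all tested genes rose and 10.1% fell. Nr0b1, a nuclear receptor of the naive network, had the largest change and fell, with 0.438 and 0 TPM in NC, against 6.59 and 4.51 TPM in NPC (log2FC -2.43 ± 0.279 SE, limma adjusted p = 0.00377, and 0.0534 without NPC replicate 1). Fbxo15 fell to 0.537 and 1.32 TPM in NC, against 3.17 and 2.65 TPM in NPC (log2FC -1.05 ± 0.268 SE, limma adjusted p = 0.0333), and Pou5f1, listed at 0 in both NC libraries, was called lower (limma adjusted p = 0.0237). The Pou5f1 call was lost without any 1 of the 6 libraries (limma adjusted p from 0.056 to 0.139) and with FPKM (limma adjusted p = 0.108), and the Fbxo15 call without any but NC replicate 2 (limma adjusted p from 0.0821 to 0.194). With a pseudocount of 0.1 the value for Nr0b1 was -4.58. Esrrb rose, with 12.3 and 8.44 TPM in NC (log2FC 2.24 ± 0.208 SE, limma adjusted p = 0.00308). Stat3, which carries the LIF signal to the nucleus, rose as well, to 175 and 95.4 TPM in NC, against 36.6 and 40.2 TPM in NPC (log2FC 1.73 ± 0.276 SE, limma adjusted p = 0.00821). The Stat3 call was lost without NPC replicate 1 (limma adjusted p = 0.0819) and without NPC replicate 2 (limma adjusted p = 0.0596). Klf2 and Klf4 are also expressed in endothelium, and the 7 endothelial markers summed to 50.3 and 30.9 TPM in mESC, 14.3 and 14.5 TPM in NPC, and 2.98 and 11.4 TPM in NC. Most of the mESC sum was Pecam1 (34.8 and 19.7 TPM in mESC, 1.57 and 1.54 TPM in NPC, and 0.128 and 1.43 TPM in NC). The other endothelial markers reached at most 6.22 TPM in any library, Cldn5 was higher in NPC (5.88 and 6.22 TPM) than in mESC (3.46 and 3.53 TPM), and Emcn was listed at 0 in both mESC libraries. Their part in the result was not tested.

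**Figure D4:**
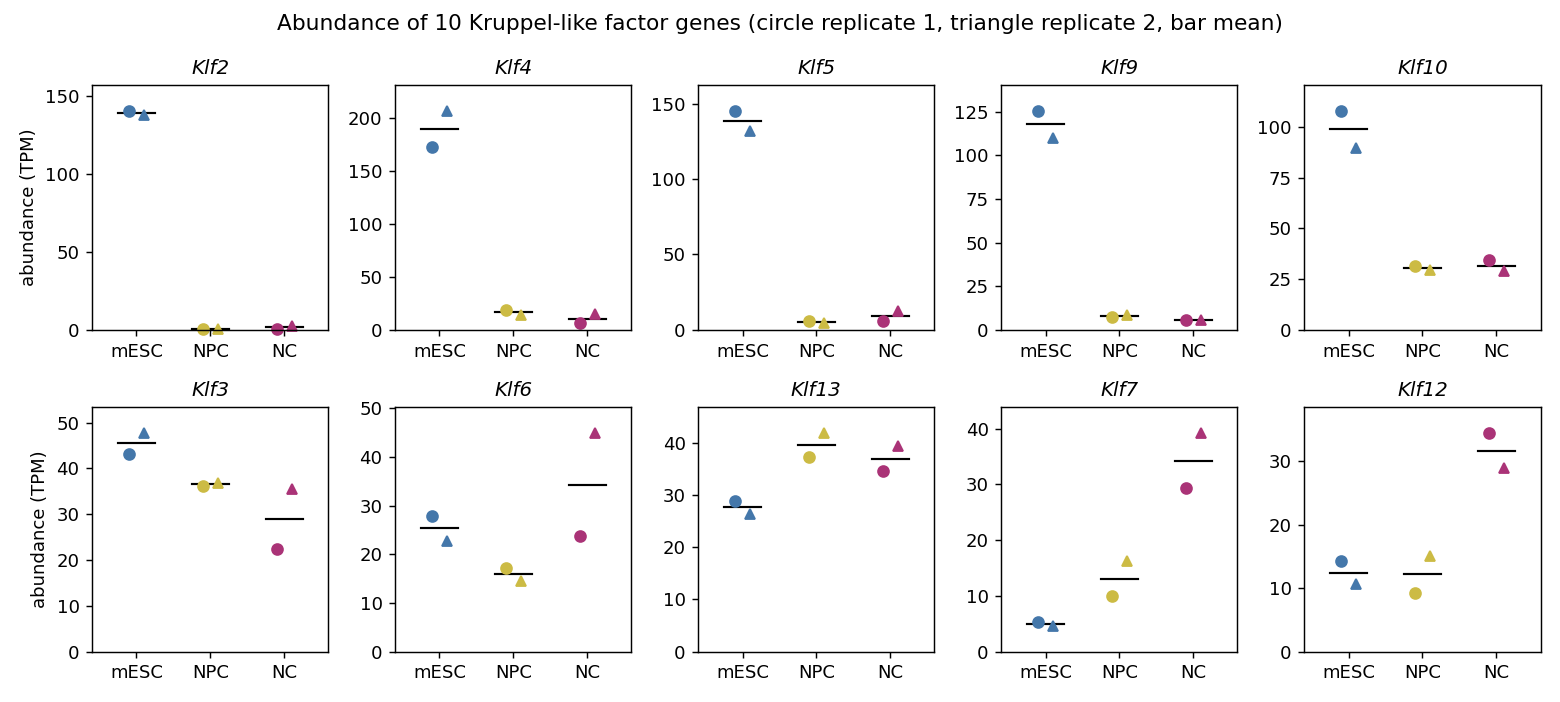
Each panel shows the abundance (y axis from 0, TPM) of 1 gene in mESC, NPC and NC (x axis), with a circle for replicate 1, a triangle for replicate 2 and a bar at the mean. Klf2, Klf4, Klf5, Klf9 and Klf10 are higher in both mESC libraries than in any other, Klf7 lies at 4.69 to 5.33, 9.90 to 16.2 and 29.3 to 39.2 TPM along the stages, and Klf12 is higher in NC (29.0 to 34.5 TPM) than in the other stages.

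Klf9, Klf10 and Klf13 encode factors that recruit the SIN3A corepressor. Klf9 (ENSMUSG00000033863.1, chromosome 19, 23141226 to 23166911) had 125 and 110.1 TPM in mESC, 7.54 and 8.45 TPM in NPC, and 5.53 and 5.91 TPM in NC. Both replicates agreed closely at each stage. Its log2 fold change was -3.72 for NPC against mESC (SE 0.179, limma adjusted p = 4.40e-05) and -4.14 for NC against mESC (SE 0.179, limma adjusted p = 2.03e-05). NC against NPC was not called (-0.42, SE 0.179, limma adjusted p = 0.135), except with quantile normalization, where it was lower (limma adjusted p = 0.0418).

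Klf10 (ENSMUSG00000037465.9, chromosome 15, 38294413 to 38300707) had 108 and 89.8 TPM in mESC, 31.4 and 29.7 TPM in NPC, and 34.3 and 29.2 TPM in NC. It lost less than Klf9 and lay between 29.2 and 34.3 TPM in all 4 libraries of the later stages. The log2 fold change was -1.66 for NPC against mESC (SE 0.165, limma adjusted p = 0.000562) and -1.61 for NC against mESC (SE 0.165, limma adjusted p = 0.000341). The NC and NPC ranges overlapped (0.05, SE 0.165, limma adjusted p = 0.863).

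Klf13 (ENSMUSG00000052040.9, chromosome 7, 63886347 to 63938915) had 28.9 and 26.4 TPM in mESC, 37.4 and 41.9 TPM in NPC, and 34.7 and 39.3 TPM in NC. It rose in NPC against mESC by a log2 fold change of 0.50 (SE 0.159, limma adjusted p = 0.0445). That call was lost in 9 of 16 alternatives, including median-of-ratios scaling (0.33, limma adjusted p = 0.123) and the fit without any 1 of the mESC or NPC libraries (limma adjusted p from 0.0663 to 0.26). NC against mESC gave 0.41 (SE 0.159, limma adjusted p = 0.0636) and NC against NPC gave -0.10 (SE 0.159, limma adjusted p = 0.693).

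A list of 16 genes held receptors and ligands of the hormone and TGF-beta inputs named above, beside neural and other genes. Of these 15 were tested, with 7 higher and 3 lower in NPC against mESC and a median log2FC of 1.33. Over all tested genes 26.0% were called higher and 14.0% lower there. The largest changes were those of Gap43, a growth-cone protein (4.13, SE 0.485, limma adjusted p = 0.00107), and Ntrk2, the receptor for BDNF (2.99, SE 0.530, limma adjusted p = 0.00539, but 0.0654 and 0.0572 without mESC replicates 1 and 2, and 5.41 with a pseudocount of 0.1). Genes of the TGF-beta pathway moved in both directions. Tgfbr1, the type I receptor for TGF-beta, rose to 89.7 and 89.1 TPM in NPC, against 14.5 and 12.6 TPM in mESC (log2FC 2.64 ± 0.141 SE, limma adjusted p = 6.19e-05). Tgfb3, a ligand of that pathway, had 6.52 and 6.88 TPM in NPC, against 0.212 and 0.141 TPM in mESC (log2FC 2.71 ± 0.240 SE, limma adjusted p = 0.000364, and 4.63 with a pseudocount of 0.1). Tgfb1, another ligand, fell to 2.32 and 2.34 TPM in NPC, against 12.2 and 7.20 TPM in mESC (log2FC -1.65 ± 0.319 SE, limma adjusted p = 0.0076), a call lost without mESC replicate 1 (limma adjusted p = 0.0504), NPC replicate 1 (limma adjusted p = 0.0538) or NPC replicate 2 (limma adjusted p = 0.0578). Smad7, which is induced by the pathway and inhibits it, fell to 10.3 and 10.7 TPM in NPC, against 46.6 and 46.6 TPM in mESC (log2FC -2.05 ± 0.218 SE, limma adjusted p = 0.000721). Stmn2, a microtubule regulator of neurons, was the remaining gene that fell (-1.27, SE 0.155, limma adjusted p = 0.00125). Thra, a thyroid hormone receptor, rose to 383 and 224 TPM in NC, against 43.4 and 69.4 TPM in NPC (log2FC 2.39 ± 0.313 SE, limma adjusted p = 0.00503, and 0.055 without NPC replicate 1). Thrb, the other thyroid hormone receptor gene, did not pass the filter. Nr3c1, the glucocorticoid receptor gene, lay at 5.94 to 12.7 TPM and was not called in any comparison.

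Klf6 and Klf7 encode activators with related acidic N-terminal domains. Klf6 (ENSMUSG00000000078.6, chromosome 13, 5861489 to 5870393) had 27.9 and 22.8 TPM in mESC, 17.3 and 14.6 TPM in NPC, and 23.7 and 44.9 TPM in NC. Its NPC libraries were below those of both other stages, but no comparison was called. The log2 fold change was -0.64 for NPC against mESC (SE 0.308, limma adjusted p = 0.149, and 0.0484 without NC replicate 1). NC against NPC gave 1.00 (SE 0.308, limma adjusted p = 0.0573), and 1.45 without NC replicate 1 (limma adjusted p = 0.0263). NC against mESC gave 0.36 (SE 0.308, limma adjusted p = 0.342), 0.81 without NC replicate 1 (limma adjusted p = 0.035) and -0.085 without NC replicate 2, so its sign rests on that library.

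Klf7 (ENSMUSG00000025959.12, chromosome 1, 64029447 to 64122282) had 5.33 and 4.69 TPM in mESC, 9.90 and 16.2 TPM in NPC, and 29.3 and 39.2 TPM in NC. It was the lowest of the 10 in mESC and the only member whose ranges rose without overlap at both steps. Listed genes outside the family did so as well, among them Tubb3, Map2, L1cam and Jun. The share of all tested genes with such ranges was not counted. Its log2 fold change was 2.54 for NC against mESC (SE 0.284, limma adjusted p = 0.000488), a call kept in all 16 alternatives. For NPC against mESC it was 1.19 (SE 0.284, limma adjusted p = 0.0167), a call lost without mESC replicate 1 (limma adjusted p = 0.0774), without mESC replicate 2 (limma adjusted p = 0.109) and without NPC replicate 2 (limma adjusted p = 0.125), with quantile normalization (limma adjusted p = 0.0575) and with no filter (limma adjusted p = 0.0556). For NC against NPC it was 1.35 (SE 0.284, limma adjusted p = 0.018), a call lost without mESC replicate 1 (limma adjusted p = 0.0568), mESC replicate 2 (limma adjusted p = 0.0567), NPC replicate 1 (limma adjusted p = 0.133) or NC replicate 2 (limma adjusted p = 0.0969). It was also lost with no filter (limma adjusted p = 0.0633) and when the 2 groups were fitted alone (limma adjusted p = 0.0544).

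Of the 15 tested genes of the receptor and neural list, 6 rose and 0 fell in NC against NPC, with a median log2FC of 1.41. Over all tested genes 15.2% rose and 10.1% fell there. Stmn2 had the largest change, with 498 and 439 TPM in NC, against 67.5 and 77.8 TPM in NPC (log2FC 2.67 ± 0.155 SE, limma adjusted p = 0.00206). L1cam, a cell adhesion molecule of axons, had 123 and 122 TPM in NC, against 23.6 and 24.0 TPM in NPC (log2FC 2.31 ± 0.237 SE, limma adjusted p = 0.00333). Cdkn1a, which encodes the cell cycle inhibitor p21, had 268 and 471 TPM in NC, against 67.6 and 76.6 TPM in NPC (log2FC 2.29 ± 0.260 SE, limma adjusted p = 0.00371). The calls of L1cam and Cdkn1a were lost without NPC replicate 1 (limma adjusted p = 0.0511 for L1cam and 0.0537 for Cdkn1a).

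Klf3 and Klf12 encode repressors that bind the corepressor CTBP. Klf3 (ENSMUSG00000029178.13, chromosome 5, 64803388 to 64832901) had 43.2 and 47.8 TPM in mESC, 36.2 and 36.9 TPM in NPC, and 22.4 and 35.6 TPM in NC. Its stage ranges did not overlap, yet the steps were small. It fell in NC against mESC by 0.67 on the log2 scale (SE 0.229, limma adjusted p = 0.0423), and the other comparisons were not called (-0.30 for NPC against mESC, limma adjusted p = 0.333, and -0.36 for NC against NPC, limma adjusted p = 0.293, SE 0.229 each). The call was lost in 8 of 16 alternatives, among them the fits without mESC replicate 1 (limma adjusted p = 0.117), mESC replicate 2 (limma adjusted p = 0.185), NPC replicate 1 (limma adjusted p = 0.0864), NPC replicate 2 (limma adjusted p = 0.0865) and NC replicate 1 (limma adjusted p = 0.117). Exons of Klf3 overlap Gm20033 on the opposite strand (2.49 to 8.87 TPM). No source used here says if reads were counted by strand, and without that the reads of this pair cannot be told apart.

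Klf12 (ENSMUSG00000072294.4, chromosome 14, 99874486 to 100149764) had 14.3 and 10.6 TPM in mESC, 9.30 and 15.1 TPM in NPC, and 34.5 and 29.0 TPM in NC. The mESC and NPC ranges overlapped, and both NC libraries were higher. NC against NPC gave a log2 fold change of 1.34 (SE 0.277, limma adjusted p = 0.017) and NC against mESC 1.29 (SE 0.277, limma adjusted p = 0.00712), while NPC against mESC gave -0.05 (SE 0.277, limma adjusted p = 0.908). The call in NC against NPC was lost without NPC replicate 1 (limma adjusted p = 0.125), NC replicate 1 (limma adjusted p = 0.0834) or NC replicate 2 (limma adjusted p = 0.0642) and with no filter (limma adjusted p = 0.0628), and that in NC against mESC without mESC replicate 2 (limma adjusted p = 0.0662) or NC replicate 1 (limma adjusted p = 0.0506).

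Cofactors and ubiquitin ligases of the family were listed as well. Of 13 tested, 2 rose and 4 fell in NPC against mESC, with a median log2FC of -0.010. Over all tested genes 26.0% rose and 14.0% fell there. The genes for the CTBP corepressors went opposite ways: Ctbp1 rose to 266 and 274 TPM in NPC, against 92.3 and 102 TPM in mESC (log2FC 1.47 ± 0.123 SE, limma adjusted p = 0.000289). Ctbp2 fell to 177 and 165 TPM in NPC, against 399 and 440.2 TPM in mESC (log2FC -1.29 ± 0.173 SE, limma adjusted p = 0.00181). Ctbp1 was thus the lower of the pair in both mESC libraries and the higher in the NPC and NC libraries, with 294 and 288 TPM in NC, where Ctbp2 had 134 and 180.5 TPM. Hdac2, a histone deacetylase of corepressor complexes, rose (log2FC 1.03 ± 0.123 SE, limma adjusted p = 0.00114), and Kat2b, the acetyltransferase PCAF, fell (-2.31, SE 0.185, limma adjusted p = 0.000249). Sin3a, which encodes the corepressor named above for KLF9, KLF10 and KLF13, fell as well (-0.48, SE 0.135, limma adjusted p = 0.0301). It was also called lower in NC against NPC (-0.48, limma adjusted p = 0.0445) and in NC against mESC (-0.955, limma adjusted p = 0.00126). In NC against NPC 4 of the 13 rose and 2 fell, with a median log2FC of 0.33, where 15.2% of all tested genes rose and 10.1% fell. The largest changes were those of the ubiquitin ligase genes Fbxw7 (0.91, limma adjusted p = 0.0188) and Smurf1 (0.89, limma adjusted p = 0.012), of Kat2b (0.75, limma adjusted p = 0.0299) and of Hdac1 (-0.54, limma adjusted p = 0.0358). All 4 calls were lost without NPC replicate 1 (limma adjusted p from 0.104 to 0.229) and without NPC replicate 2 (limma adjusted p from 0.0932 to 0.166). Without NC replicate 1 those of Kat2b (limma adjusted p = 0.0858) and Hdac1 (limma adjusted p = 0.105) were lost as well, and without NC replicate 2 those of Fbxw7 (limma adjusted p = 0.0753), Kat2b (limma adjusted p = 0.0623) and Hdac1 (limma adjusted p = 0.0619).

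Several Kruppel-like factors are induced as immediate early genes in other settings, so 18 such genes were listed, of which 17 were tested. In NPC against mESC 5 rose and 5 fell, with a median log2FC of 0.16. Over all tested genes 26.0% rose and 14.0% fell there, and 15.2% rose and 10.1% fell in NC against NPC. Junb (log2FC -2.60 ± 0.191 SE, limma adjusted p = 0.000187), Nr4a1 (-2.38, SE 0.258, limma adjusted p = 0.000776) and Arc (-3.02, SE 0.278, limma adjusted p = 0.000418) fell, as Klf2, Klf4 and Klf10 did, while Jun rose (2.62, SE 0.154, limma adjusted p = 8.52e-05). In NC against NPC 7 rose and 0 fell, with a median log2FC of 0.93, among them Egr1, with 17.8 and 22.7 TPM in NC, against 2.08 and 2.74 TPM in NPC (log2FC 2.64 ± 0.384 SE, limma adjusted p = 0.00651, and 0.0716 without NPC replicate 1). Npas4 (1.95, limma adjusted p = 0.00426), Egr3 (1.83, limma adjusted p = 0.00573) and Dusp1 (1.10, limma adjusted p = 0.0297) followed, and these calls too were lost without NPC replicate 1 (limma adjusted p = 0.0538 for Npas4, 0.0637 for Egr3 and 0.186 for Dusp1). Dusp1 was called only with all libraries or without NC replicate 1 among the fits that left out 1 library (limma adjusted p from 0.0713 to 0.186 in the other 5). With a pseudocount of 0.1 the value was 3.12 for Npas4 and 2.53 for Egr3. The immediate early genes therefore moved in both directions at the first step.

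Among the 7 other Klf genes 5 were tested, and 4 fell and 0 rose in NPC against mESC, with a median log2FC of -0.99. Over all tested genes 14.0% fell and 26.0% rose there. Klf15, a metabolic regulator in liver and muscle, had 6.07 and 6.33 TPM in NPC, against 57.0 and 41.3 TPM in mESC (log2FC -2.78 ± 0.642 SE, limma adjusted p = 0.0148). Klf16, a SIN3A-binding relative of Klf9 and Klf13, had 7.10 and 7.98 TPM in NPC, against 32.4 and 44.0 TPM in mESC (log2FC -2.19 ± 0.224 SE, limma adjusted p = 0.00063). Klf8, a CTBP-binding relative of Klf3 and Klf12, had 8.73 and 6.87 TPM in NPC, against 18.8 and 13.7 TPM in mESC (log2FC -0.96 ± 0.255 SE, limma adjusted p = 0.0242). Klf1, the erythroid founder of the family, fell as well, to 0.374 and 0.390 TPM in NPC, against 1.85 and 1.64 TPM in mESC (-0.99, SE 0.257, limma adjusted p = 0.0231). Klf11 was not called (-0.30, SE 0.191, limma adjusted p = 0.26, but 0.0328 with quantile normalization), and Klf14 and Klf17 did not pass the filter. Calls of Klf15 and Klf1 were lost without any 1 of the mESC or NPC libraries (limma adjusted p from 0.0815 to 0.129 for Klf15 and from 0.056 to 0.0997 for Klf1), that of Klf1 also with a pseudocount of 0.1 (-1.93, limma adjusted p = 0.10), and that of Klf8 without mESC replicate 1 (limma adjusted p = 0.114), NPC replicate 1 (limma adjusted p = 0.0766) or NPC replicate 2 (limma adjusted p = 0.165). With no filter Klf15 (limma adjusted p = 0.0761) and Klf8 (limma adjusted p = 0.0535) were not called either. In NC against mESC 4 of the 5 fell, as did 22.1% of all tested genes. Klf15 had 8.03 and 1.01 TPM in the NC libraries, and its log2 fold change in NC against mESC was -3.54, but -4.62 without NC replicate 1 and -2.45 without NC replicate 2, and it was not called without mESC replicate 1 (limma adjusted p = 0.0554). All 17 Klf genes together summed to 951 and 912 TPM in mESC, 217 and 226 TPM in NPC, and 243 and 294.5 TPM in NC.

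The Sp genes kept a more even total, with 190.0 and 182 TPM in mESC, 177 and 168 TPM in NPC, and 147 and 152.5 TPM in NC. Of 6 tested, 2 rose and 1 fell in NPC against mESC, 0 rose and 2 fell in NC against NPC, and 2 rose and 3 fell in NC against mESC, with median log2FC of -0.11, -0.20 and -0.30. Over all tested genes 26.0%, 15.2% and 37.8% rose and 14.0%, 10.1% and 22.1% fell in the same comparisons. Sp8, a factor of forebrain and limb patterning, had 28.7 and 21.0 TPM in NPC, against 0.588 and 1.36 TPM in mESC (log2FC 3.72 ± 0.369 SE, limma adjusted p = 0.000557). Sp4, which is enriched in neurons, had 15.0 and 13.7 TPM in NPC, against 6.05 and 5.90 TPM in mESC (1.13, SE 0.202, limma adjusted p = 0.00549, and 0.0579 without NPC replicate 1). Sp1, the ubiquitous GC box activator, had 49.9 and 51.7 TPM in NPC, against 87.7 and 84.3 TPM in mESC (-0.75, SE 0.131, limma adjusted p = 0.0051, but 0.0564 and 0.0521 without NPC replicates 1 and 2). Sp5, a WNT target, had 0.0936 and 0 TPM in NC, against 4.12 and 5.46 TPM in NPC (-2.46, SE 0.254, limma adjusted p = 0.00333). Sp1 was the other Sp gene that fell in NC against NPC (-0.46, limma adjusted p = 0.0447), a call lost without any 1 of the NPC or NC libraries (limma adjusted p from 0.0772 to 0.234). With a pseudocount of 0.1 the value for Sp8 was 4.62 and that for Sp5 was -5.12. Whether Klf and Sp genes differ in their change was not tested.

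**Figure D5:**
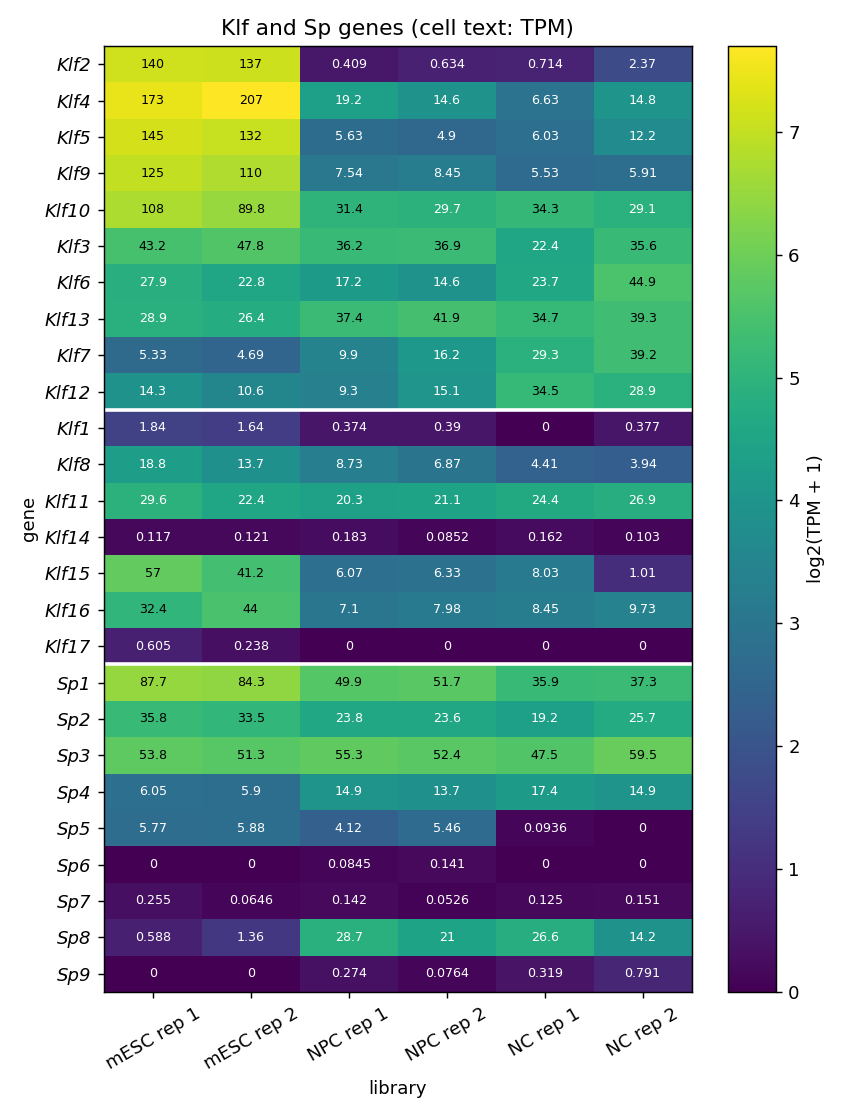
Colour gives log2(TPM + 1) and the text in each cell the TPM of the 10 genes (top block), the 7 other Klf genes (middle block) and the 9 Sp genes (bottom block) in the 6 libraries. The brightest cells are Klf4, Klf5, Klf2 and Klf9 in the mESC columns, with 110.1 to 207 TPM, and Sp8 is brighter in NPC and NC than in mESC.

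For every member, other genes had closer profiles than any other member, which is likely for any small set among 20232 tested genes. It therefore does not show whether the members moved together. Likeness was measured as the Euclidean distance between log2(TPM + 1) profiles over 6 libraries, each centred on its mean. Klf4 and Klf9 were nearest to each other among the 10 (0.903), and 25 of all other tested genes were closer to Klf4 than Klf9 was. Klf2 was nearest to Klf5 (2.36) and Klf7 to Klf12 (1.52), with 77 and 3251 genes closer. Over all genes, Klf2 was closest to AU018091 (0.575) and Inpp5d (0.898), Klf4 to Alg13 (0.432) and Anxa11 (0.572), Klf5 to Sfn (0.504) and Fgf17 (0.596), and Klf9 to Bin2 (0.287) and 1700019D03Rik (0.391). Inpp5d, which encodes the phosphatase SHIP1, had 107 and 86.2 TPM in mESC, 0.609 and 0.821 TPM in NPC, and 0.283 and 1.00 TPM in NC. Klf7 was closest to Gm27217 (0.238) and Glyctk (0.302), and Klf12 to Lzts3 (0.311) and Tnfaip6 (0.323). Lzts3, a postsynaptic protein, had 5.82 and 4.30 TPM in mESC, 3.72 and 4.73 TPM in NPC, and 13.4 and 11.4 TPM in NC. The nearest genes of the remaining members were Rpusd2 (0.156) and Ahctf1 (0.201) for Klf3, Lcat (0.168) and Eda2r (0.239) for Klf6, Gbp2b (0.174) and Cd80 (0.207) for Klf10, and Nfxl1 (0.109) and Brcc3 (0.121) for Klf13. Several of these nearest genes were low, where adding 1 TPM shrinks a fold change. Cd80 had 2.12 and 1.77 TPM in mESC and 0 in NPC and NC. Gbp2b had 3.555 and 2.25 TPM in mESC and at most 0.387 TPM later. Gm27217 was at 0 in mESC and at most 6.04 TPM elsewhere, and Tnfaip6 reached at most 3.79 TPM. A small distance to such genes does not mean an equal fold change of TPM.

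Within NC, 5 members were at least 1.58 times as high in replicate 2 as in replicate 1. That cutoff is the ratio of Klf3, set after the values were seen, and the share of all tested genes reaching it was not counted. The ratio was 3.33 for Klf2, 2.24 for Klf4, 2.02 for Klf5, 1.90 for Klf6 and 1.58 for Klf3. It was 0.839 to 1.34 for the other members. The ratio of Klf2 rests on low values (0.714 and 2.37 TPM). Over genes, the log2 difference of NC replicate 1 minus replicate 2 had an SD of 0.6. Among the 5 members that difference ran from -1.05 (Klf4) to -0.64 (Klf3). Epithelial markers were also higher in NC replicate 2, with ratios from 2.32 (Epcam) to 4.06 (Krt18) for all 5 on that list (Krt8, Krt18, Krt19, Epcam and Cdh1). Of the 5 progenitor markers 4 were lower in NC replicate 2 (0.105 for Hes5, 0.207 for Fabp7, 0.427 for Pax6 and 0.707 for Sox1) and Nes was higher (1.42). Of the 4 astrocyte markers Aldh1l1 (0.0318) and Gfap (0.0615) were lower, S100b was nearly equal (0.978) and Aqp4 was listed at 0 in NC replicate 2, against 0.613 TPM in NC replicate 1. The part of these markers in the NC values of Klf2, Klf3, Klf4, Klf5 and Klf6 was not tested.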

How the data were processed

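Poly(A)-enriched, rRNA-depleted RNA of 6 libraries was sequenced on an Ion Proton, per the labels' protocols. The submitters' processing notes list StringTie 2.1.5, STAR 2.7.9a and cutadapt 3.4 beside FastQC, DESeq2 and R 4.0.3, and the build mm10, without order or settings. Per the file headers, the authors deposited StringTie gene tables with coverage, FPKM and TPM. Deposited coverage is mean read depth over exons, and its most frequent ratio to FPKM, within 0.1%, gave the aligned bases. Deposited FPKM is scaled to transcript length and library, and deposited TPM rescales it to a fixed sum. No source used here gives the annotation release or the strand setting.

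Repeated lines of a gene ID (2 to 9 per table) were summed. limma 3.58.1 in R 4.3.3 was fitted to log2(TPM + 1) of all 6 libraries, with 1 coefficient per stage, eBayes with a trend and 3 residual degrees of freedom, two-sided. With 2 libraries a group an exact permutation test cannot reach 0.05. The code was tested on simulated data. The members and gene lists were chosen with earlier results of these data known. Named genes are all members, the up to 4 called genes per list with the largest change in NPC against mESC and in NC against NPC, and the nearest profiles. Pou5f1 in NC against NPC, and Tgfb1, Smad7 and Stmn2 in NPC against mESC, were named after their values were seen. So were Nr3c1, Thrb and Sin3a. Alternatives were other pseudocounts, filters, units, scalings and fits, a replicate block, and each library left out.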

Additional observations from a re-analysis of the deposited data

How the results depend on the processing

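Over the 10 genes, 3 comparisons and 16 alternatives, 431 of 480 values kept their direction and their side of the threshold, 34 lost a call, 8 gained one and 7 changed sign. Klf2, Klf4, Klf5, Klf9 and Klf10 stayed called, lower, in NPC against mESC and in NC against mESC under all 16. The sign changes were Klf12 in NPC against mESC without mESC replicate 1 (0.15) and NPC replicate 1 (0.27), with a range of -0.37 to 0.27 over the libraries left out, Klf10 in NC against NPC with FPKM (-0.11) and quantile normalization (-0.11) and without NC replicate 1 (range -0.066 to 0.16), and Klf6 in NC against mESC with quantile normalization (-0.070) and without NC replicate 2 (range -0.085 to 0.81), all of them values that were not called, and the cause was not tested. With no filter beyond a TPM above 0, NC against NPC had 3166 genes called in place of 5123, and 0 of the 10 members in place of 2 (9131 genes at an unadjusted p under 0.05, limma). Fitting only the 2 groups compared left 1 member called there. Leaving out 1 library gave 4032 to 8484 genes in NPC against mESC (8100 with all), 309 to 4156 in NC against NPC and 9499 to 11187 in NC against mESC (12118 with all), and 5 to 8, 0 to 4 and 6 to 8 members.

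Replicate numbers are not said to pair the libraries, and the deviations of same-numbered libraries correlated by 0.045 (NPC and mESC), -0.070 (NC and NPC) and -0.082 (NC and mESC) over genes. With the replicate block 7368, 4247 and 11575 genes and 6, 2 and 8 members were called, and Klf13 in NPC against mESC was not (limma adjusted p = 0.0836), nor were Sp1 (limma adjusted p = 0.0973) and Hdac1 (limma adjusted p = 0.0625) in NC against NPC. With 2 libraries per stage and no read counts, the counting error behind a value is unknown.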

Other observations

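Klf5 and Klf12 lie on chromosome 14, 561 kb apart, and differ in their course. In NC against mESC Klf5 had a log2 fold change of -3.85 and Klf12 of 1.29. Of the 5 gene models between them, 2 reached 1 TPM in any library: Gm22970, with 0 in both mESC libraries, 0.413 and 0.415 TPM in NPC, and 4.96 and 5.31 TPM in NC, and Gm37093, with at most 1.14 TPM. This pair was picked after its values were seen.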
